A study of Mus musculus with 12 samples.

Results

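The Toll-like receptor genes described here are *Tlr1*, *Tlr2*, *Tlr3*, *Tlr4*, *Tlr5*, *Tlr6*, *Tlr7*, *Tlr8*, *Tlr9*, and *Tlr13*, 10 of the 18376 genes in the expression table, taken from it by gene symbol. Their RNA was sequenced in cultured mouse macrophages (BMDMs) that M-CSF at 50 ng/ml had raised from marrow progenitors of adult wild-type C57BL6/J animals. The 4 groups of 3 libraries all carried M-CSF and were taken after 6 days without further treatment (CTRL), with activin A at 50 ng/ml (Act), with FST288 at 250 ng/ml (FST), or with the 2 proteins together (Act + FST). FST288, a follistatin isoform that captures activin A outside the cell, served as its antagonist. The study asked whether activin A, a ligand of the TGF-β family, shapes inflammatory and fibrotic functions of macrophages. The labels do not say whether libraries of a group came from separate animals or cultures, so the p-values measure only the spread between these libraries.

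Toll-like receptors are membrane proteins with which macrophages sense microbes and damaged cells. Receptors on the cell surface bind lipids, lipopeptides, and flagellin, and receptors inside endosomes bind RNA or DNA. After binding, adaptor proteins such as MyD88 and TRIF (encoded by *Ticam1*) pass the signal through IRAK kinases and TRAF ubiquitin ligases to NF-κB and interferon regulatory factors, which switch on cytokine genes.

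Values are normalized counts, meaning reads per gene scaled by 1 factor per library. They summed to 5643708 to 5955400 per library, of which the 10 receptors took 147 to 167 per 100000. The limma test was run on log2(normalized count + 1) for the 14318 genes whose mean over all libraries reached 5, and all 10 receptors did. A gene was called when its p, adjusted by Benjamini-Hochberg over all genes tested, was 0.05 or less. Of 7 macrophage markers, 0 were called in Act versus CTRL by limma and 0 had an unadjusted p under 0.05, and their summed level was 10699 to 11646 in CTRL and 10836 to 11423 in Act. Some genes listed as markers of other cells did move. *Ccr2*, a monocyte marker, was at 272 to 633 in CTRL and rose to 873 to 940 in Act, while *Ly6c2*, another, was at 47 to 94 and 50 to 95 and was not called. The study itself reports *Ccr2* as raised by activin A in BMDMs, in RNA and in protein. The neutrophil list, in which *Mpo* and *Elane* (2 of 6) fell, had a summed level of 407 to 667 in CTRL and 354 to 567 in Act, and its defining marker *Ly6g* stood at 2 to 8 in these libraries. *Cd209a*, 1 of 4 tested dendritic cell markers, fell, with a summed level of the list of 55 to 118 in CTRL and 51 to 104 in Act. *Cd4*, from the T cell list, also fell, where the list summed to 612 to 700 in CTRL and 393 to 494 in Act and *Cd3d* was at 0 in all CTRL libraries and at most 3 in Act. In the B cell, plasmacytoid dendritic cell, stromal, and erythroid lists 0 genes were called in this comparison (0, 1, 0, and 1 had an unadjusted p under 0.05), and no gene of the mast cell or basophil list passed the filter. With the replicate block *Siglech* and *Ccr9*, 2 of 3 tested plasmacytoid markers, were called higher (log2 fold changes 0.67 and 1.08; adjusted p = 0.0111 and 0.0165), as were the stromal *Col1a2* (2.76; 4.7e-04) and the dendritic *Flt3* (1.25; 0.0209), all with overlapping groups. The plasmacytoid list summed to 1692 to 1936 in CTRL and 1767 to 1950 in Act, and the stromal list to 3 to 54 and 9 to 198. The part of these cells in the results was not tested, and in bulk RNA fewer cells of a type and less RNA per cell cannot be told apart.

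Sequences around annotated starts are shown for the 3 receptors with the largest positive log2 fold changes in Act versus CTRL. They are RefSeq promoter windows of the GRCm38.p6 assembly, from 250 bases before to 50 bases after an annotated transcription start, printed 5′ to 3′ on the strand of the gene. *Tlr2* lies on the minus strand (chr3:83841559-83841858), *Tlr9* on the plus strand (chr9:106222348-106222647), and *Tlr3* on the minus strand (chr8:45410331-45410630). In the same build (GENCODE vM21) the whole genes span chr3:83836272-83841767 for *Tlr2*, chr9:106222598-106226883 for *Tlr9*, chr8:45395665-45411080 for *Tlr3*, and, on the plus strand, chr4:66827584-66930284 for *Tlr4*. The *Tlr3* window lies wholly inside the span of its gene, and the *Tlr2* window reaches into its span by more than the 50 bases after the start. Bases before these 2 starts can thus be part of the annotated gene. *Tlr5* lies on chromosome 1, *Tlr1* and *Tlr6* on chromosome 5, and *Tlr7*, *Tlr8*, and *Tlr13* on chromosome X. Capitals mark matches, on either strand, to short motifs of NF-κB, AP-1 (TGANTCA), SMAD proteins (CAGAC), ETS factors (GGAAGT), PU.1 (GAGGAAGT, which contains the ETS letters), IRF, C/EBP (TTGCNNAA), and RUNX (TGTGGT).
Tlr2: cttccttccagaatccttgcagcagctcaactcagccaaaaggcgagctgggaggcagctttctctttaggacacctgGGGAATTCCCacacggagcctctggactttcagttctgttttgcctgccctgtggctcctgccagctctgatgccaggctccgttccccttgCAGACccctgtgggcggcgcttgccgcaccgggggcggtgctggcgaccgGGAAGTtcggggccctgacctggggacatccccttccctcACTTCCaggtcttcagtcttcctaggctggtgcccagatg
Tlr9: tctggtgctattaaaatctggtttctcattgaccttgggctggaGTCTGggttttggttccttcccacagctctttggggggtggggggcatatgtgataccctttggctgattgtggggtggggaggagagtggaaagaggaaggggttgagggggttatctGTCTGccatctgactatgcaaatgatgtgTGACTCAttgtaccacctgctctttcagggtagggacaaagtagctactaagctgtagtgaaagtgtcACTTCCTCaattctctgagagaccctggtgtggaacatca
Tlr3: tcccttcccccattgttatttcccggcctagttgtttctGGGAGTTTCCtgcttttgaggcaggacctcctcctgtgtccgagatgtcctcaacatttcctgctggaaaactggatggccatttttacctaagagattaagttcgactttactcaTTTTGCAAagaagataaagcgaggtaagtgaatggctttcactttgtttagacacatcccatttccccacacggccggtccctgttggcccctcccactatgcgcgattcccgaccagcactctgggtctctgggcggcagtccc
The *Tlr2* window held the NF-κB letters GGGAATTCCC starting 172 bases before the start, and the *Tlr3* window held GGGAGTTTCC 211 bases before it. This motif occurred in 4.79% of the 32851 promoter windows of the same length. The *Tlr9* window held no NF-κB match but an AP-1 match, TGACTCA, 58 bases before the start (7.81% of all windows) and a PU.1 match 11 bases after it (3.2%). The SMAD letters occurred in *Tlr2* once and in *Tlr9* at 2 positions, and were found in 49.6% of all windows. CpG pairs numbered 11 in *Tlr2*, 10 in *Tlr3*, and 0 in *Tlr9*, against a median of 7. Windows were found for 8 of the 10 receptors. A match is a run of letters and does not show that a factor binds there.

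Among the receptors, *Tlr2* and *Tlr9* rose in Act relative to CTRL. These 2 of 10 receptors (20%) compare with 10.3% of all genes called higher, and 0 of 10 were called lower, against 9.97%. No receptor reached a fold change of 2 with the adjusted p, as 2.58% of all genes did upward and 3.09% downward. With the replicate number as a block in the model, *Tlr3* was also called higher and *Tlr4* lower, making 4 of 10 receptors, where the block called 16.3% of all genes higher and 15.2% lower. The median log2 fold change of the receptors was -0.01, beside 0.004 over all genes, and the median of its size was 0.09, beside 0.14.

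**Figure D1:**
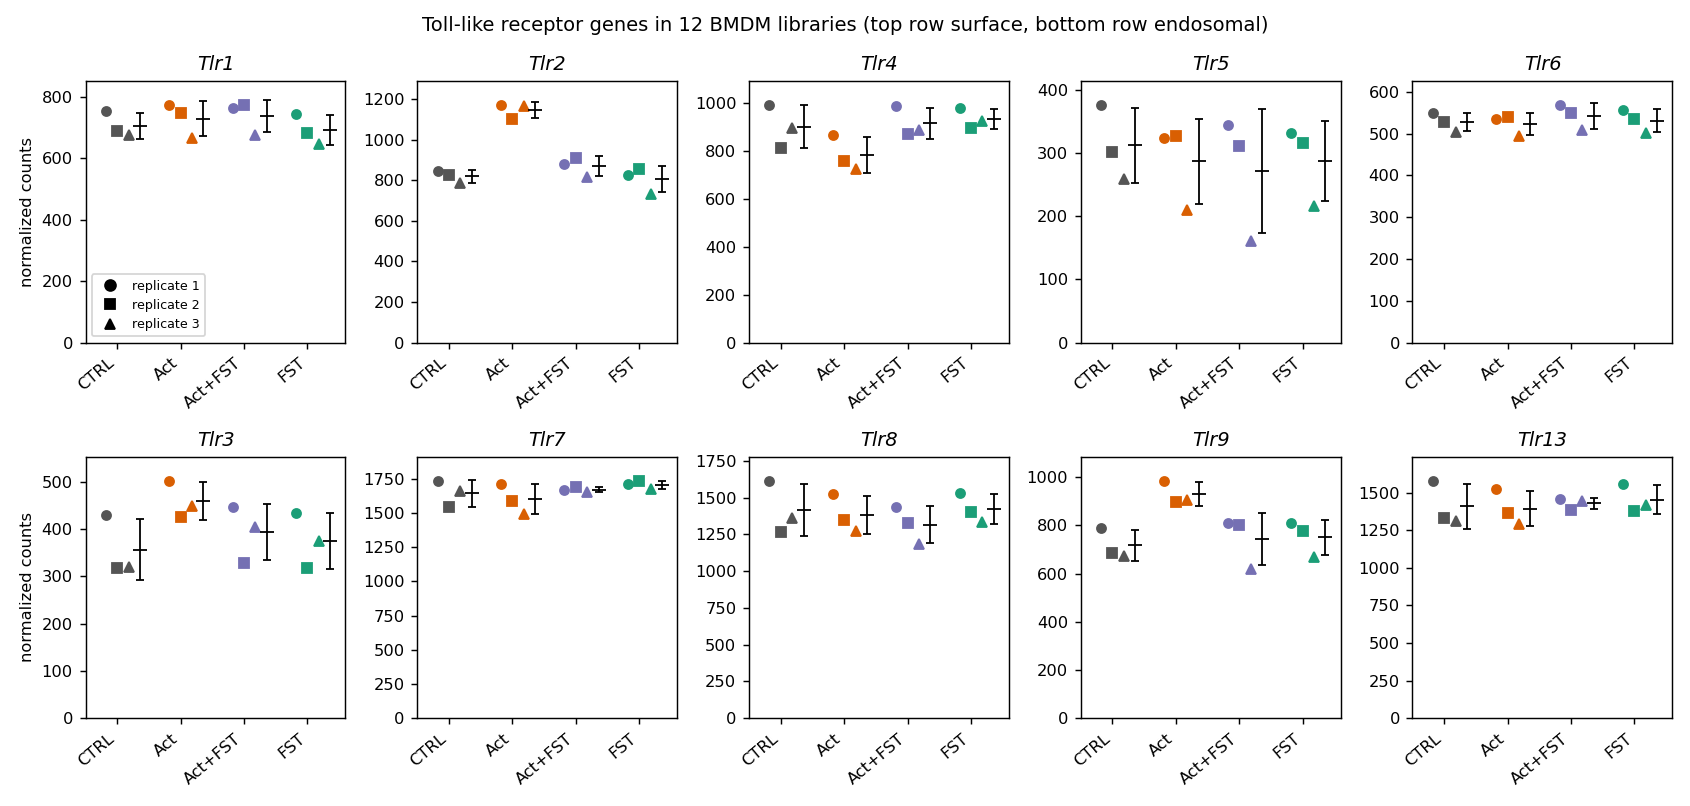
Normalized counts (vertical axis, from 0) of the 10 receptors in each library, by group; circles, squares, and triangles are replicates 1, 2, and 3, and the black bar with whiskers is the mean ± SD (n = 3). The Act libraries lie above those of every other group for *Tlr2* (1103 to 1172) and *Tlr9* (896 to 986), while most other panels overlap across groups.

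At the cell surface, *Tlr2* encodes the receptor that senses bacterial lipopeptides in pairs with TLR1 or TLR6. It had normalized counts of 846, 825, and 785 in CTRL, 1172, 1103, and 1166 in Act, 880, 912, and 814 in Act + FST, and 828, 854, and 733 in FST. All Act libraries lay above all 9 others. The means were 819 ± 31 in CTRL and 1147 ± 38.2 in Act (SD, n = 3), a log2 fold change of 0.49 ± 0.06 (SE; adjusted p = 1.4e-04), or 1.4-fold. It was higher in 3 of 3 same-numbered pairs, and leaving out any 1 library of the comparison gave 0.46 to 0.51, called each time.

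The genes of its partners were not called. *Tlr1* was at 756, 688, and 676 in CTRL and 775, 749, and 667 in Act, with overlapping groups and a log2 fold change of 0.05 (95% interval -0.11 to 0.21; adjusted p = 0.73). *Tlr6* was at 549, 528, and 505 in CTRL and 534, 541, and 494 in Act, and its interval was the narrowest around 0 together with that of *Tlr7* (log2 fold change -0.01, interval -0.14 to 0.11; adjusted p = 0.915). *Tlr1* and *Tlr6* are neighbouring, similar genes that share 340 stretches of 75 bases, the read length, and since reads with several positions were excluded, such reads were lost to both.

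*Tlr4*, the receptor for lipopolysaccharide of Gram-negative bacteria, had the opposite sign. It stood at 994, 815, and 896 in CTRL and 868, 758, and 724 in Act, and at 990, 873, and 887 in Act + FST and 980, 895, and 927 in FST. Act overlapped CTRL through Act replicate 1 and CTRL replicate 2, but lay below all libraries of Act + FST and FST. The log2 fold change against CTRL was -0.2 ± 0.08 (SE; interval -0.38 to -0.03), which did not pass the threshold (adjusted p = 0.104) but did with the replicate block (adjusted p = 0.00178), as Act was lower in 3 of 3 pairs. The call was also made with quantile normalization (adjusted p = 0.0221), without CTRL replicate 2 (0.0455), and without Act replicate 1 (0.0359).

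*Tlr5*, which encodes the flagellin receptor, was the least even of the receptors. Its values were 377, 302, and 260 in CTRL, 325, 328, and 210 in Act, 345, 311, and 161 in Act + FST, and 332, 316, and 216 in FST. Replicate 3 was the lowest in all 4 groups. Act differed from CTRL by -0.13 on the log2 scale with an interval from -0.73 to 0.46 (adjusted p = 0.794). With the replicate block the interval was -0.35 to 0.09 (adjusted p = 0.365). Changes of either sign within these bounds are compatible with the values.

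Among the endosomal receptors, *Tlr9*, which senses unmethylated CpG DNA, was the one called higher. It measured 790, 687, and 674 in CTRL, 986, 896, and 906 in Act, 809, 803, and 620 in Act + FST, and 809, 776, and 670 in FST. The lowest Act library (896) lay above the highest of the 9 others (809). The log2 fold change against CTRL was 0.38 ± 0.10 (SE; adjusted p = 0.0212), or 1.3-fold, and was higher in 3 of 3 pairs. The call was lost without CTRL replicate 2 (adjusted p = 0.0729), CTRL replicate 3 (0.084), or Act replicate 1 (0.0778). Over the fits without 1 library the log2 fold change was 0.33 to 0.45. With the replicate block the adjusted p was 2.1e-04.

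*Tlr3*, the receptor for long RNA duplexes, had 431, 318, and 320 in CTRL, 503, 425, and 450 in Act, 446, 329, and 405 in Act + FST, and 434, 317, and 375 in FST. CTRL replicate 1 (431) reached into the range of Act, whereas each Act library was above the CTRL library of the same number. The log2 fold change was 0.38 ± 0.14 (SE; interval 0.06 to 0.69), the same size as for *Tlr9* with a wider error, and it was not called (adjusted p = 0.0864) except with the replicate block (2.8e-04) or without CTRL replicate 1 (log2 fold change 0.52, adjusted p = 0.0209). Of its exonic bases 7.32% lie opposite exons of the antisense gene *Gm45542*, which was not analysed here. The library kit was a stranded one, but the strand setting of the counting is not given in the sources used here. If counting ignored strand, reads over both genes were left out, since reads that hit more than 1 gene were excluded.

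The RNA receptors *Tlr7*, *Tlr8*, and *Tlr13* had high counts in every group. *Tlr7*, a receptor for single-stranded RNA, ranged from 1540 to 1736 in CTRL and from 1494 to 1714 in Act (log2 fold change -0.04, interval -0.16 to 0.08; adjusted p = 0.678). *Tlr8*, its neighbour on chromosome X, ranged from 1269 to 1616 in CTRL and from 1273 to 1522 in Act (log2 fold change -0.03, interval -0.24 to 0.18; adjusted p = 0.86). *Tlr13*, a sensor of bacterial ribosomal RNA, ranged from 1314 to 1581 in CTRL and from 1294 to 1523 in Act (log2 fold change -0.01, interval -0.18 to 0.16; adjusted p = 0.935). The groups overlapped for all 3 genes, and changes inside these intervals are compatible with the values. Across the 10 receptors, Act lay wholly above CTRL for *Tlr2* and *Tlr9*, as it did for 18% of all genes, and wholly below it for none, beside 17.6%.

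**Figure D2:**
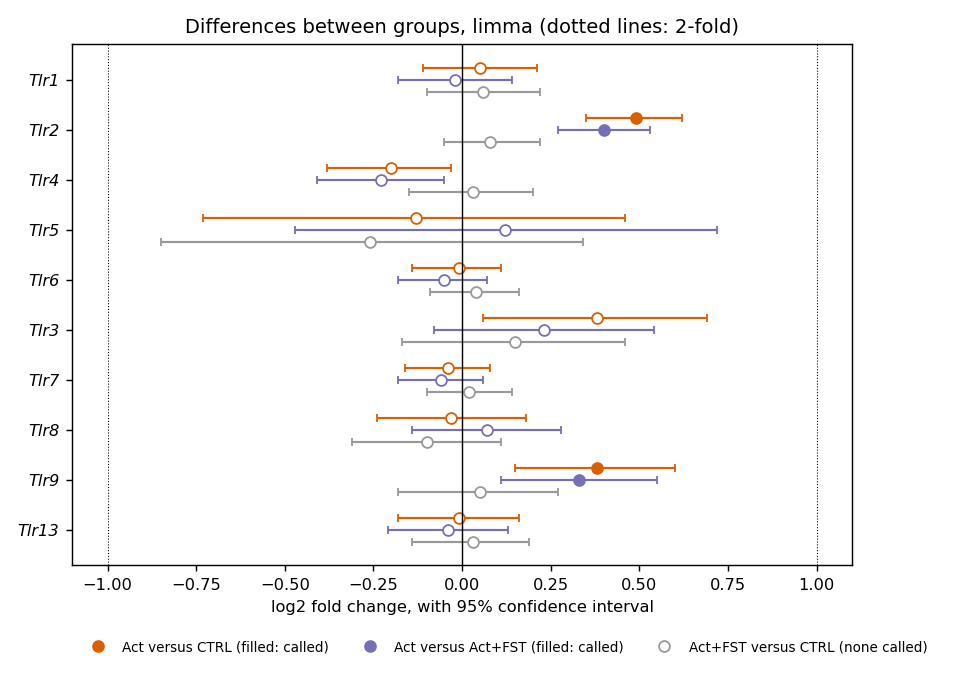
Log2 fold changes of the 10 receptors (horizontal axis) with 95% confidence intervals from limma, for Act versus CTRL, Act versus Act + FST, and Act + FST versus CTRL; filled points are called and dotted lines mark a fold change of 2. *Tlr2* and *Tlr9* are filled in both comparisons of Act, *Tlr4* lies left of 0 in both, and all Act + FST versus CTRL intervals include 0.

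The comparison of Act with Act + FST asks how the receptors differed when activin A was given with its antagonist; it shares the Act libraries with the comparison above. *Tlr2* and *Tlr9* were again called higher in Act (2 of 10, where 11.1% of all genes were), and 0 of 10 were called lower (10.2% of all genes). None passed a fold change of 2 as well, where 2.72% of all genes did upward and 3.11% downward. For *Tlr2* the log2 fold change was 0.4 ± 0.06 (SE; adjusted p = 5.5e-04), and for *Tlr9* it was 0.33 ± 0.10 (adjusted p = 0.0377, or 5.8e-04 with the replicate block). Leaving out 1 library kept *Tlr2* called at 0.36 to 0.44, but *Tlr9* lost its call without Act replicate 1 (0.29, adjusted p = 0.123), Act replicate 2 (0.36, 0.067), Act replicate 3 (0.35, 0.0734), or Act + FST replicate 3 (0.2, 0.139), and when only the 6 libraries compared were used (adjusted p = 0.0544).

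*Tlr4* was lower in Act than in every Act + FST library, with a log2 fold change of -0.23 ± 0.08 (SE; adjusted p = 0.0664). It was called with the replicate block (adjusted p = 6.6e-04), with quantile normalization (0.00969), and without Act replicate 1 (0.0224). *Tlr3* differed by 0.23 ± 0.14 (adjusted p = 0.298, or 0.00895 with the block), with overlapping groups. The block thus called 3 receptors higher and 1 lower, where it called 17.1% and 15.4% of all genes. Groups did not overlap for *Tlr2* and *Tlr9* on the higher side (17.4% of all genes) and for *Tlr4* on the lower side (16.7%). The other 6 receptors had log2 fold changes from -0.06 for *Tlr7* to 0.12 for *Tlr5* and were not called, although *Tlr7* was with quantile normalization (log2 fold change -0.11, adjusted p = 0.0334).

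With the antagonist present, no receptor differed detectably from control. In Act + FST versus CTRL limma called 0 of 10 receptors, and 0% of all genes, and 0 receptors had an unadjusted p under 0.05, as 4.57% of all genes did. With the block 3 receptors, *Tlr3*, *Tlr5*, and *Tlr8*, had an unadjusted p under 0.05 (9.81% of all genes), and 0 were called (0.279% of all genes in each direction). Log2 fold changes ran from -0.26 for *Tlr5* to 0.15 for *Tlr3*. *Tlr2* had 0.08 (interval -0.05 to 0.22) and *Tlr9* 0.05 (-0.18 to 0.27), so that a remaining rise inside these bounds is compatible with the values. In FST versus CTRL limma called 0 of 10 receptors and 0% of all genes, with or without the block. In neither fit did a receptor have an unadjusted p under 0.05, beside 2.09% of all genes without the block and 4.89% with it. The log2 fold changes there ran from -0.13 to 0.08, with *Tlr2* at -0.03 and *Tlr4* at 0.05.

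Whether activin A did the same with and without FST288 was tested directly as the difference (Act - CTRL) - (Act + FST - FST). For *Tlr2* it was 0.38 ± 0.09 on the log2 scale (SE; interval 0.19 to 0.56; adjusted p = 0.0213), and *Tlr2* was the 1 receptor of 10 called, where 3.99% of all genes were called higher and 2.75% lower. The adjusted p rose to between 0.0518 and 0.0623 without CTRL replicate 3, Act replicate 1, Act replicate 3, FST replicate 1, or FST replicate 2. *Tlr9* had a difference of 0.4 (adjusted p = 0.137, or 0.00435 with the block) and *Tlr3* one of 0.31 (0.456, or 0.0233 with the block), which made 3 receptors called with the block (9.36% of all genes higher, 6.96% lower). For *Tlr4* the difference was -0.17 (adjusted p = 0.46, or 0.0561 with the block).

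Ratios of receptors within a library do not depend on the scaling between libraries. They were not among the planned results, and their numerators (*Tlr2*, *Tlr9*, and *Tlr3*) are receptors with higher values in Act. A separation of Act in these ratios therefore restates the differences above and adds no independent evidence. The ratio of *Tlr2* to *Tlr4* was 0.851, 1.01, and 0.876 in CTRL, 1.35, 1.46, and 1.61 in Act, 0.889, 1.04, and 0.918 in Act + FST, and 0.845, 0.954, and 0.791 in FST. All Act libraries were above the 9 others. The ratio of *Tlr2* to *Tlr1* was 1.12 to 1.2 in CTRL and 1.47 to 1.75 in Act, and that of *Tlr2* to *Tlr6* was 1.54 to 1.56 in CTRL and 2.04 to 2.36 in Act. Among endosomal receptors, *Tlr9* to *Tlr7* was 0.407 to 0.455 in CTRL and 0.564 to 0.606 in Act, and *Tlr3* to *Tlr7* was 0.193 to 0.248 and 0.267 to 0.301, although Act + FST replicate 1 (0.268) reached into the range of Act for the latter (exact permutation p = 0.2 for Act versus Act + FST). Of 7 ratios computed, each of these 5 had p = 0.1 in Act versus CTRL (two-sided exact permutation test), the smallest that 3 against 3 libraries allow, so no adjustment could bring them past 0.05.

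**Figure D3:**
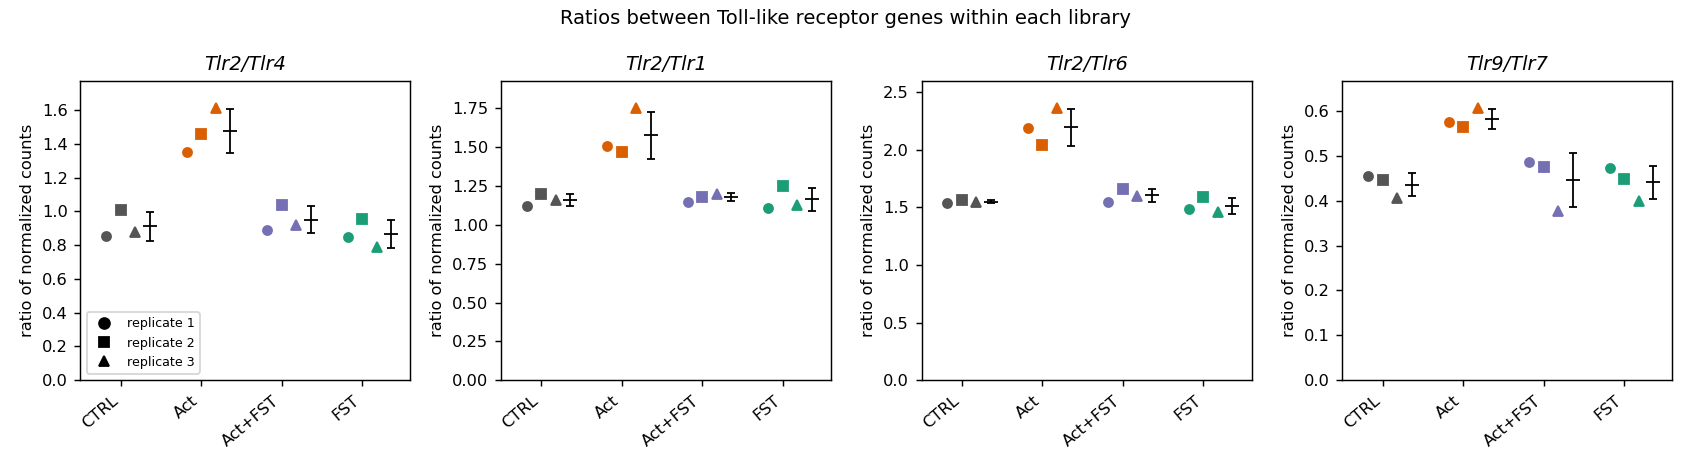
Ratios of normalized counts between pairs of receptors within each library (vertical axis, from 0), by group, with replicates 1, 2, and 3 as circles, squares, and triangles and the mean ± SD (n = 3) in black. In all 4 panels the 3 Act libraries lie above the 9 others; *Tlr2* to *Tlr4* is 1.35 to 1.61 in Act and at most 1.04 elsewhere.

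Levels of different receptors were compared per kilobase (kb) of exonic sequence of each gene. The mean over the 12 libraries was highest for *Tlr7* (405 normalized counts per kb, range 366 to 425), followed by *Tlr8* (386, 331 to 451), *Tlr13* (330, 301 to 367), *Tlr2* (302, 243 to 389), *Tlr9* (226, 178 to 283), and *Tlr1* (214, 193 to 232). Below these came *Tlr4* (159, 130 to 179), *Tlr6* (142, 133 to 153), *Tlr3* (76.1, 60.9 to 96.6), and *Tlr5* (60.6, 33.6 to 78.7). The span from highest to lowest was 6.68-fold, and the 5 endosomal receptors made up 61.8% of the summed level per kb. The means of *Tlr1* and *Tlr9* changed places between groups. In CTRL they were 211 ± 12.9 for *Tlr1* and 206 ± 18.3 for *Tlr9* (SD, n = 3). They were 221 ± 16 and 214 ± 30.9 in Act + FST, and 207 ± 14.6 and 216 ± 20.9 in FST. The differences in these groups were smaller than the SDs. In Act *Tlr1* (218 ± 16.8) was below *Tlr9* (267 ± 14.2) by more than the SDs. Neighbours in this order overlapped in their ranges over the 12 libraries except *Tlr1* with *Tlr4* and *Tlr6* with *Tlr3*. These ranges pool the groups, and Act carried the upper end for *Tlr2* (mean 381 per kb, against 267 to 288 in the other groups). In Act the level of *Tlr2* (381 ± 12.7 per kb) came near that of *Tlr8* (385 ± 35.7), whereas in CTRL they were 272 ± 10.3 and 395 ± 50 (SD, n = 3). With the length of the longest coding transcript in place of all exons, a choice made after seeing the data, *Tlr1* passed *Tlr9*, and *Tlr4* (217, 178 to 244) then overlapped *Tlr1* (214 to 256).

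**Figure D4:**
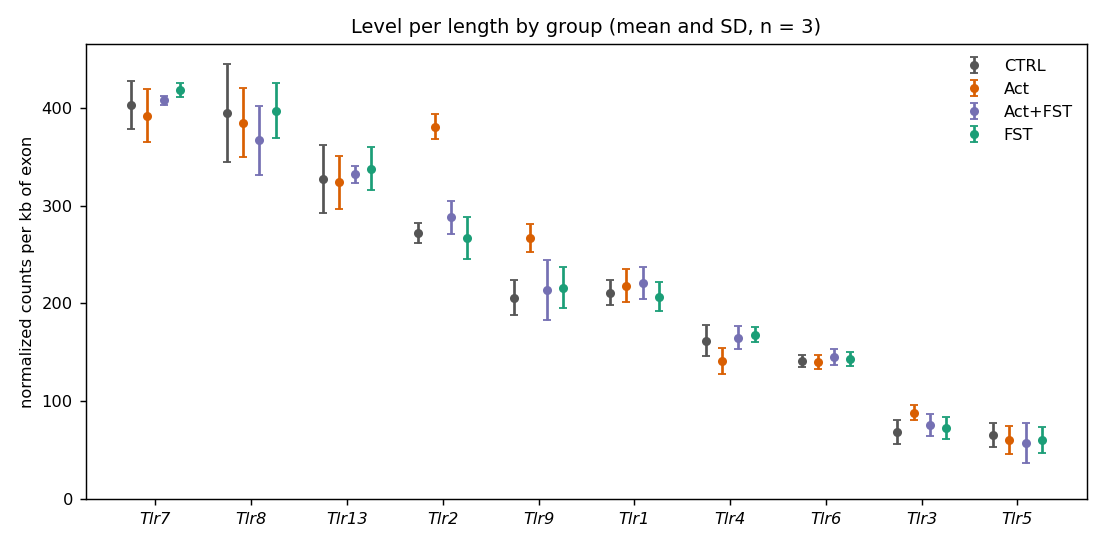
Normalized counts per kb of exonic sequence (vertical axis, from 0) for the 10 receptors in order of their mean level, as mean ± SD of the 3 libraries of each group. *Tlr7*, *Tlr8*, and *Tlr13* stand highest and *Tlr3* and *Tlr5* lowest in CTRL, Act + FST, and FST, and the Act points for *Tlr2* (381) and *Tlr9* (267) stand above those of the other groups.

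Most receptors also followed the replicate number, although how many of all genes did so was not counted. *Tlr3*, *Tlr4*, *Tlr8*, *Tlr9*, and *Tlr13* were highest in replicate 1 in 4 of 4 groups, and *Tlr1*, *Tlr5*, and *Tlr6* were lowest in replicate 3 in 4 of 4. *Tlr3*, however, was lowest in replicate 2 in 4 of 4. *Tlr2* and *Tlr7* were each highest in replicate 1 in 2 groups and in replicate 2 in the other 2. Such shifts by replicate number lay within each group and are what the block removes.

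Over the 12 libraries, the genes whose log2 values followed each receptor most closely were found among 10624 genes with a mean of at least 50. For *Tlr2* these were *Il13ra1* (r = 0.988), an interleukin receptor chain, *Tmem176b* (0.988), and *Itgal* (0.986), a leukocyte integrin chain. For *Tlr9* they were *Ikzf1* (0.969), a lymphoid and myeloid transcription factor, *Gbgt1* (0.964), and *Zfp26* (0.96). *Tlr4* was followed by *Tmem231* (0.985), *Oxr1* (0.978), and *Fgd4* (0.976), and *Tlr3* by *Ppp1r13b* (0.97), *Ppip5k2* (0.958), and *Ppp1r15b* (0.955). For *Tlr5* the closest was *Malat1* (0.929), a nuclear noncoding RNA, and for both *Tlr6* (0.922) and, in the second place, *Tlr1* (0.867) it was *Btaf1*. *Tlr1* was closest to *Gm6377* (0.909), *Tlr7* to *Rab31* (0.946), *Tlr8* to *Arhgap31* (0.984), and *Tlr13* to *Xpo6* (0.939). These r are descriptions over libraries that share groups and replicate numbers.

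The pathway around the receptors was followed in 8 lists with 98 genes in the table, of which 95 passed the filter. In Act versus CTRL 27 were called higher and 8 lower, with a median log2 fold change of 0.08, and with the block 36 and 15; over all genes the shares were 10.3% and 9.97%, and 16.3% and 15.2% with the block. Without Act replicate 3 the calls numbered 21. The same shares of all genes are the background for the counts of each list below. In Act + FST versus CTRL and in FST versus CTRL 0 of the 95 were called by limma (10 and 4 had an unadjusted p under 0.05), and with the block 1 and 0. In Act versus Act + FST 28 were higher and 8 lower, where 11.1% and 10.2% of all genes were.

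**Figure D5:**
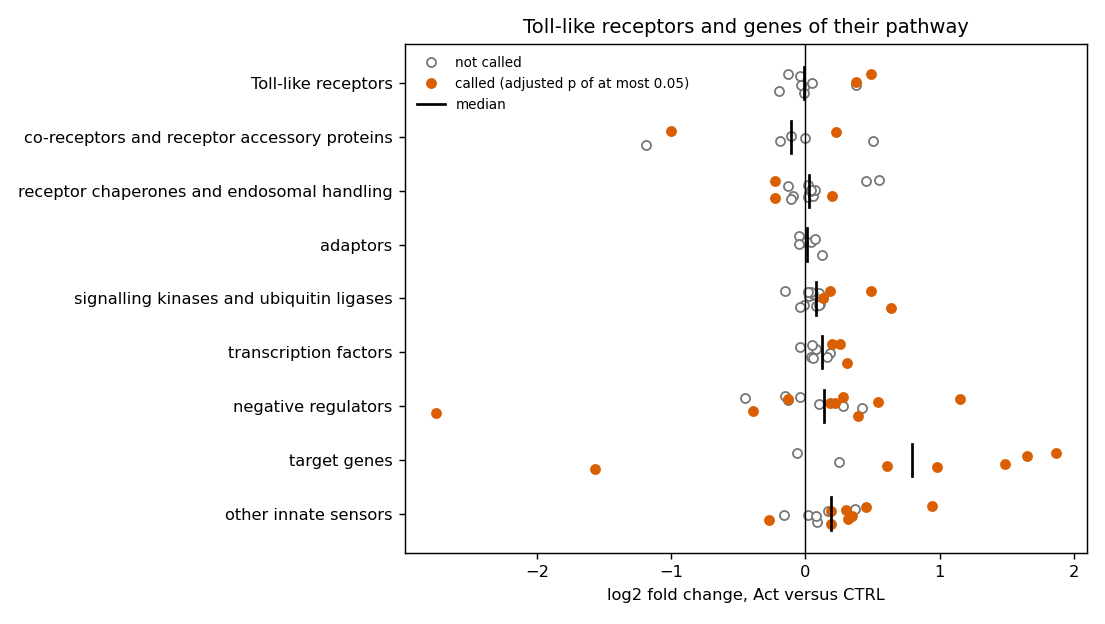
Log2 fold change of Act versus CTRL (horizontal axis) for each tested gene of the receptor family and of the 8 pathway lists (rows; height within a row carries no meaning); filled points are called and black bars are medians. Called genes lie on both sides of 0 among negative regulators, targets, and co-receptors, and no adaptor is called.

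Of 7 co-receptors and accessory proteins 1 rose and 1 fell, and with the block 2 rose and 3 fell. Over all genes 10.3% were called higher and 9.97% lower, or 16.3% and 15.2% with the block. *Cd14*, which hands lipopolysaccharide to TLR4, was at 748, 704, and 653 in CTRL and 822, 817, and 832 in Act (log2 fold change 0.23; adjusted p = 0.0259), a call that was lost in 5 of 6 fits without 1 library (0.18 to 0.28). *Cd36*, a scavenger receptor that also delivers lipids to TLR2, was at 1727, 1423, and 1412 in CTRL and 783, 825, and 673 in Act, and fell by 1 on the log2 scale (adjusted p = 8.1e-06). In Act + FST it was at 1227 to 1343, above Act and below CTRL, but the difference from CTRL was not called. That difference was -0.23 on the log2 scale (limma, adjusted p = 0.959, or 0.168 with the replicate block). *Ly96*, the TLR4 partner that binds lipopolysaccharide, was at 146 to 164 in CTRL and 129 to 149 in Act and was not called.

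Of 15 genes of receptor folding, transport, and endosomal handling, 1 rose and 2 fell (2 and 3 with the block). These counts are near the shares of all genes, 10.3% higher and 9.97% lower, or 16.3% and 15.2% with the block. Without Act replicate 3 none of them was called, and without CTRL replicate 1, CTRL replicate 3, or Act replicate 2 only 1 was. *Slc15a3*, an endosomal peptide transporter, was at 1469 to 1610 in CTRL and 1745 to 1820 in Act (log2 fold change 0.2; adjusted p = 0.0227), a call lost in 4 of 6 fits without 1 library. The cathepsins *Ctsb* (3792 to 4189 against 3301 to 3557) and *Ctsl* (1081 to 1289 against 940 to 1030), proteases that can process endosomal receptors, each fell by 0.23 (adjusted p = 0.0301 and 0.0397). Leaving out 1 library lost the call of *Ctsb* in 4 of 6 fits and that of *Ctsl* in 3 of 6, and *Ctsl* also lost it with only the 6 libraries compared (adjusted p = 0.0553). *Unc93b1*, the chaperone that carries these receptors to endosomes, was at 1734 to 1802 in CTRL and 1763 to 1837 in Act (log2 fold change 0.03, interval -0.09 to 0.15).

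Of the 6 adaptors 0 were called by limma, also with the block, and 0 had an unadjusted p under 0.05. Their log2 fold changes ran from -0.05 to 0.12. *Myd88*, used by nearly all receptors of the family, was at 543 to 581 in CTRL and 562 to 604 in Act (log2 fold change 0.04, interval -0.06 to 0.13). Of 19 kinases and ubiquitin ligases 4 rose and 0 were called lower by limma (1 with the block), while 6 in all had an unadjusted p under 0.05. *Irak2*, a kinase that sustains signalling after the first wave, went from 570, 520, and 476 to 847, 780, and 811 (log2 fold change 0.64; adjusted p = 1.5e-04). *Traf3*, a ubiquitin ligase of the interferon branch, went from 449 to 528 to 658 to 700 (0.49; adjusted p = 8.6e-04). Without CTRL replicate 2, Act replicate 1, or Act replicate 3 the calls of this list numbered 2. *Peli2* (0.18; adjusted p = 0.0261) and *Map3k7*, the TAK kinase (0.13; 0.0326), were higher by less and lost their calls in 4 of 6 fits without 1 library.

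Of 10 transcription factors 3 rose, all NF-κB subunits. *Relb* was at 400 to 427 in CTRL and 480 to 567 in Act (log2 fold change 0.31; adjusted p = 0.00608). *Nfkb1* had 1100 to 1190 and 1308 to 1398 (0.26; 0.00401), and *Nfkb2* had 796 to 866 and 909 to 991 (0.2; 0.0141). The call of *Nfkb2* was lost without CTRL replicate 3 or Act replicate 3.

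Negative regulators moved both ways, 6 of 16 up and 3 down (9 and 5 with the block). *Socs3*, an inhibitor of cytokine receptor signalling, went from 116, 131, and 99 in CTRL to 243, 245, and 282 in Act (log2 fold change 1.15; adjusted p = 3.4e-04). The NF-κB inhibitors *Nfkbie* (0.54; adjusted p = 0.00539) and *Nfkbia* (0.39; 0.0039), themselves NF-κB targets, rose as well. *Il1rl1*, the receptor for interleukin-33, went from 272, 183, and 120 to 37, 43, and 11, and fell by 2.75 (adjusted p = 0.00284).

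Of 8 tested target genes 5 rose and 1 fell. Without CTRL replicate 3 or Act replicate 3 the calls numbered 3, namely *Il1b*, *Ptgs2*, and *Il10*. *Il1b*, an inflammatory cytokine, went from 147, 122, and 86 in CTRL to 425, 410, and 445 in Act (log2 fold change 1.87; adjusted p = 0.00258). *Ptgs2*, an enzyme of prostaglandin synthesis, was at 6 to 9 and 20 to 32 (1.65; 0.00784), and the chemokine *Ccl5* at 26 to 72 and 125 to 158 (1.49; 0.016). The chemokine *Cxcl2* and the cytokine *Tnf* were the other 2 that rose (0.98 and 0.61). *Il10*, an anti-inflammatory cytokine, went from 84, 89, and 76 to 28, 36, and 20, and fell by 1.57 (adjusted p = 6.3e-05).

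Among 14 other innate sensors 7 rose and 1 fell. *Clec4e*, a lectin that senses mycobacterial glycolipid, went from 449, 407, and 350 in CTRL to 755, 688, and 871 in Act (log2 fold change 0.94; adjusted p = 5.5e-05). *Clec4n*, a lectin for fungal mannan, had 0.45 (adjusted p = 8.2e-04), *Nod2*, a cytosolic sensor of peptidoglycan, had 0.35 (0.00982), and *Nlrc4*, an inflammasome component, had 0.32 (0.00431). *Nod1*, the relative of *Nod2*, was the gene that fell, by 0.27 (adjusted p = 0.00919).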

How the data were processed

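RNA of 12 BMDM libraries (4 groups of 3) was sequenced from a single end. The authors used Trimmomatic 0.39 for trimming, STAR 2.7.9a for alignment to mm10, and featureCounts 2.0.2 for counting, without reads that hit more than 1 gene or position. The deposited signal is the count per gene, scaled once per library and then rounded, so the test planned for raw counts gave way to that planned for normalized values, limma 3.58.1 in R 4.3.3 (trend, pseudocount 1, minimum mean 5), with 4 group means over 12 libraries. Replicate numbers from the labels were used to pair the libraries. Deviations from group means correlated at 0.157 to 0.481 in the 18 same-number pairs. In the 36 others they correlated at -0.358 to 0.169, with a mean of -0.155. Because deviations within a group sum to 0, that mean follows from the same-number pairs and is no separate evidence of pairing. Members and lists were chosen with earlier results of these data known. Named are all receptors, *Tlr11*, *Tlr12*, up to 4 called, non-overlapping genes per list by fold, and the closest 3 genes by correlation. *Myd88*, *Unc93b1*, *Ly96*, *Cxcl2*, *Tnf*, *Nod1*, and the markers were named after their values were seen; a marker is not reported here. Exon lengths come from GENCODE vM21 (GRCm38). Alternatives were pseudocounts 0.5 and 5, filters, quantile normalization, recomputed size factors, 6 libraries only, each library left out, and the replicate block. The model was tested on simulated data without a replicate effect, so that test does not cover the shifts by replicate number. Counting error is contained in the spread of replicates.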

Additional observations from a re-analysis of the deposited data

Results flagged for a closer look

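With all libraries, the response of *Tlr2* to activin A was called different between cells with and without FST288. Act minus CTRL exceeded Act + FST minus FST by 0.38 on the log2 scale (limma, interaction term, adjusted p = 0.0213). Leaving out each library in turn gave 0.33 to 0.44, and the call was lost in 5 of 12 such fits (adjusted p at most 0.0623). *Tlr2* was higher in Act than in CTRL in 3 of 3 same-numbered pairs, which describes only the response without FST288.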

How the results depend on the processing

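The replicate block moved the receptors called from 2 to 4 in Act versus CTRL, from 2 to 4 in Act versus Act + FST, and from 1 to 3 in the interaction, and changed no other call of the 10 receptors. In Act versus Act + FST, quantile normalization gave 4 (2 up, 2 down) and using only the 6 libraries compared gave 1. Leaving out each library gave 1 to 3, 1 to 2, and 0 to 1 receptors in these comparisons, and 21 to 32 pathway genes called in Act versus CTRL, where all libraries gave 35. The other alternatives kept these counts within 1.5 times. *Tlr2* kept its call in all 14 alternatives of both comparisons of Act (adjusted p at most 0.00347).

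Signs changed only among values that were not called. Leaving out each library gave, in Act versus CTRL, log2 fold changes of -0.26 to 0.08 for *Tlr5*, -0.04 to 0.03 for *Tlr6*, -0.09 to 0.01 for *Tlr7*, -0.11 to 0.07 for *Tlr8*, and -0.08 to 0.07 for *Tlr13*. In Act versus Act + FST it gave -0.08 to 0.05 for *Tlr1*, -0.22 to 0.34 for *Tlr5*, 0 to 0.14 for *Tlr8*, and -0.1 to 0.01 for *Tlr13*. In Act + FST versus CTRL it gave -0.04 to 0.1 for *Tlr4*, -0.02 to 0.17 for *Tlr9*, and -0.23 to 1.36 for *Tlr12*. In FST versus CTRL it gave -0.07 to 0.04 for *Tlr2*, -0.03 to 0.22 for *Tlr3*, -0.02 to 0.13 for *Tlr4*, and -0.35 to 1.24 for *Tlr12*. The causes were not tested.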

Other observations

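The table held 2 further mouse receptors of the family, both known to sense a profilin of *Toxoplasma*. *Tlr12* had 3, 8, and 0 normalized counts in CTRL, 22, 30, and 24 in Act, 2, 8, and 4 in Act + FST, and 2, 6, and 4 in FST. All Act libraries were above the 9 others, with means of 3.67 ± 4.04 in CTRL and 25.3 ± 4.16 in Act (SD, n = 3). *Tlr12* passed the filter on the mean through Act alone, as the other 3 group means lay under 5, so its difference is given without a test: 2.98 against CTRL and 2.35 against Act + FST on the log2(normalized count + 1) scale. At 1.15 counts per kb in CTRL and 7.97 in Act, *Tlr12* stayed far below the 60.6 per kb of *Tlr5*, the lowest of the 10 receptors. *Tlr11*, also low, had 16, 24, and 11 in CTRL and 13, 18, and 9 in Act and was not called (log2 fold change -0.31, interval -1.24 to 0.62). Both genes were highest in replicate 2 in 4 of 4 groups.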
